A study of Rattus norvegicus with 36 samples.

Results

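Fgf21 and 5 other genes of the hepatic fasting response (Angptl4, Igfbp1, Pdk4, Pck1 and Ppargc1a) were examined in liver RNA of male rats. The rats received TBPH, the flame retardant bis(2-ethylhexyl) tetrabromophthalate, or its vehicle. The members were selected on the wide range of their values over the arrays, which is therefore described here and not tested. All 6 were found among 14217 genes named by a single symbol on an Affymetrix 3′ expression array, and each was read from 1 probe set, the one with the highest mean over the 36 arrays. The 6 groups of 6 arrays were corn oil vehicle and TBPH at 0.07 mg/kg, 0.71 mg/kg, 7.06 mg/kg, 70.6 mg/kg and 706 mg/kg, by gavage daily for 5 days, and livers were taken 1 day later. All groups were Sprague Dawley males from Harlan, 7 weeks old at the outset, with free access to NTP-2000 feed and tap water, and RNA came from the left liver lobe. The labels do not say whether food was withdrawn before necropsy, nor at what hour each liver was taken. Replicates carry numbers, but nothing in the labels ties an array to its own animal, and a p-value here measures the spread between the arrays of a group.

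In a fasting mammal the liver turns from storing glucose and fat to burning fatty acids and making glucose and ketone bodies. Falling insulin frees FOXO transcription factors, rising glucagon acts through cyclic AMP and the factor CREB, and fatty acids reaching the liver activate the nuclear receptor PPAR alpha. Fgf21, a hormone secreted by the liver, is a PPAR alpha target, and it is also switched on by ATF4, the transcription factor that cells translate when amino acids run short or the endoplasmic reticulum is under stress. Angptl4 is a secreted inhibitor of lipoprotein lipase, and Igfbp1 is a binding protein for insulin-like growth factors that insulin represses. Pdk4 is a kinase that shuts down pyruvate dehydrogenase and so spares glucose, Pck1 is the cytosolic phosphoenolpyruvate carboxykinase of gluconeogenesis, and Ppargc1a is a coactivator of both fatty acid oxidation and gluconeogenesis.

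The sequences before the start sites of the members were read because the response elements of these regulators are known as short DNA words. In the RefSeq promoter table for rat build GRCr8, which holds 300 bases around each start and mostly before it, all 6 members had an entry. Words searched on both strands were TGATGCAA (a C/EBP-ATF response element, CARE, bound by ATF4), TGACGTCA (the cyclic AMP response element, CRE), its 5-letter part TGACG (which lies within every CRE), GTAAACA (a FOXO word) and AGGNCAAAG (a core of PPAR elements). CARE stood in the Fgf21 promoter, read on the opposite strand, and in 0.743% of all 27457 promoters of the table. The whole CRE word stood in Ppargc1a and in 1.91% of all promoters. Its 5-letter part stood in Fgf21, Pck1 and Ppargc1a and in 21.96% of all promoters. With the bases before it, the Pck1 match read TTACGTCA. The FOXO word (3.76% of all promoters) and the PPAR core (2.02%) were in none of the 6 windows, and Angptl4, Pdk4 and Igfbp1 held none of the words. A match is a description of the letters. Only the words as spelled here were searched, so variants of these elements inside the 300 bases were not counted. A word absent from 300 bases may also lie elsewhere. The promoters shown are those of Fgf21 at chr1:105221327-105221626 (minus strand), of Angptl4 at chr7:15258632-15258931 (minus strand), the member that varied most closely with Fgf21, and of Pck1 at chr3:182348322-182348621 (plus strand), whose r with it was negative. Capitals mark the words found, which begin at -143 (CARE) and -72 (CRE part) from the start site in Fgf21 and at -90 (CRE part) in Pck1.
Fgf21: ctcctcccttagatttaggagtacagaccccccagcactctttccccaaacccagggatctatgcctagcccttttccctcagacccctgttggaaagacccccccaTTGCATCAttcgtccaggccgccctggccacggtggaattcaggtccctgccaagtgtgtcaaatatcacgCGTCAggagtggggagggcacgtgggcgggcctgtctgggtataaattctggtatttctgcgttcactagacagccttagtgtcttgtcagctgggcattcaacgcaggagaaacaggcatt
Angptl4: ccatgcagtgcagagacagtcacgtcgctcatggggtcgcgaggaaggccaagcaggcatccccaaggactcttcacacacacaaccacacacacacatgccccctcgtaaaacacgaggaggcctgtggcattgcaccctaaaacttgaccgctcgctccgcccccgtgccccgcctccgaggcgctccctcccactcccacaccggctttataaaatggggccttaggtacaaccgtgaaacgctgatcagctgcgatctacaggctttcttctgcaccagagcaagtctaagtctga
Pck1: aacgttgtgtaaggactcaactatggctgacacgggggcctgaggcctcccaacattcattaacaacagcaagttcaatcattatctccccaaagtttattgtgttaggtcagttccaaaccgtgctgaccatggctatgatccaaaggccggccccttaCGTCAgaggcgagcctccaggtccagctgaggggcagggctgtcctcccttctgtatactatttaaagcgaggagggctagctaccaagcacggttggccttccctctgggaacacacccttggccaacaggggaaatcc

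Liver identity was checked first. The mean log2 level of 9 hepatocyte markers, Alb and Apoa1 among them, ran from 13.91 to 14.00 over the 36 arrays. Defining fat cell genes stayed low, with Adipoq between 3.44 and 4.13 and Lep between 3.40 and 4.25, and 11 measured adipocyte markers averaged 5.61 to 6.02 per array. The mean of 14 pancreas markers ran from 4.23 to 4.47, that of 12 muscle markers from 3.98 to 4.28 and that of 9 kidney and gut markers from 4.10 to 4.47. Over the 36 arrays the Pearson r of these means with Fgf21 was 0.29 for adipocyte, -0.15 for pancreas, -0.31 for muscle and -0.38 for kidney and gut markers, and the part of other cells in the results was not tested. In bulk tissue, fewer cells of a type and less RNA per cell cannot be told apart. Pairs of arrays correlated at 0.987 to 0.996 over all probe sets. In the control probe sets for GAPDH, 3′ signal exceeded 5′ signal by 0.41 log2 in replicate 5 at 70.6 mg/kg. The excess was 0.33 log2 in replicate 4 of the 0.07 mg/kg group and at most 0.09 in the other 34 arrays. This difference can follow RNA quality, so values without both arrays are given beside the correlations below.

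Fgf21 varied more from array to array than nearly any other transcript. Its log2 values ran from 5.84 to 10.14, a range of 4.30 or 19.7-fold, which ranked 17th among 31042 probe sets, whose median range was 0.65. Without the 2 arrays of high GAPDH difference the range was 3.89. The pooled SD within groups was 1.20 and ranked 10th, against a median of 0.147 over all probe sets. By group, the lowest, median and highest Fgf21 values were 6.40, 7.32 and 9.05 in vehicle, 5.84, 6.75 and 10.14 at 0.07 mg/kg and 6.09, 7.28 and 9.40 at 0.71 mg/kg. They were 6.56, 8.36 and 9.72 at 7.06 mg/kg, 6.14, 7.59 and 8.59 at 70.6 mg/kg and 6.64, 7.20 and 9.74 at 706 mg/kg. Every dose group overlapped vehicle, each group held both low and high livers, and 11.01% of the sum of squares of Fgf21 lay between groups. In 2 groups a single array lay far above the rest, namely replicate 4 at 0.07 mg/kg (10.14, next 7.11) and replicate 2 at 706 mg/kg (9.74, next 7.48).

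The other secreted members spread less. Igfbp1 ran from 7.48 to 10.56 on the log2 scale, an 8.48-fold range that ranked 81st. Its lowest, median and highest values were 8.00, 9.36 and 9.86 in vehicle, 7.97, 9.56 and 9.997 at 0.07 mg/kg, 9.23, 9.52 and 10.56 at 0.71 mg/kg, 7.48, 9.24 and 9.87 at 7.06 mg/kg, 8.85, 9.28 and 9.41 at 70.6 mg/kg and 7.62, 9.05 and 10.31 at 706 mg/kg. All groups overlapped, the tightest being 70.6 mg/kg, with an SD of 0.20, and the widest 706 mg/kg, with an SD of 0.93. Angptl4 ran from 9.03 to 11.07, a 4.09-fold range that ranked 353rd. Its lowest, median and highest values were 9.46, 10.26 and 10.87 in vehicle, 9.90, 10.19 and 10.97 at 0.07 mg/kg, 9.22, 10.13 and 10.85 at 0.71 mg/kg, 9.32, 10.34 and 11.07 at 7.06 mg/kg, 9.03, 10.31 and 10.995 at 70.6 mg/kg and 9.49, 10.63 and 10.98 at 706 mg/kg. Groups again overlapped throughout, and 3.9% of the Angptl4 sum of squares lay between them.

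The 2 enzymes and the coactivator had narrower ranges. Pdk4 ran from 8.44 to 10.15, a 3.27-fold range. Its lowest, median and highest values were 8.44, 9.25 and 9.75 in vehicle, 8.90, 9.45 and 9.75 at 0.07 mg/kg, 9.15, 9.42 and 9.72 at 0.71 mg/kg, 8.71, 9.68 and 10.15 at 7.06 mg/kg, 9.26, 9.59 and 9.95 at 70.6 mg/kg and 8.48, 9.77 and 9.98 at 706 mg/kg. In 3 arrays at 706 mg/kg Pdk4 exceeded every vehicle array, while 2 others at that dose were near the bottom of the vehicle range. Pck1 ran from 11.71 to 13.38, a 3.18-fold range. Its lowest, median and highest values were 12.42, 12.85 and 13.38 in vehicle, 11.90, 12.89 and 13.04 at 0.07 mg/kg, 11.71, 12.63 and 13.20 at 0.71 mg/kg, 12.19, 12.44 and 12.81 at 7.06 mg/kg, 12.36, 12.48 and 12.92 at 70.6 mg/kg and 12.40, 12.59 and 13.01 at 706 mg/kg. Dose groups and vehicle overlapped for Pck1, with 3 arrays at 7.06 mg/kg below every vehicle array. Ppargc1a ran from 4.45 to 5.57, a 2.18-fold range, with its highest group median, 5.19, at 0.71 mg/kg and its lowest, 4.96, in vehicle. Its mean of 5.07 lay just under the median of the whole table, 5.09, and a filter at that median leaves it out.

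**Figure D1:**
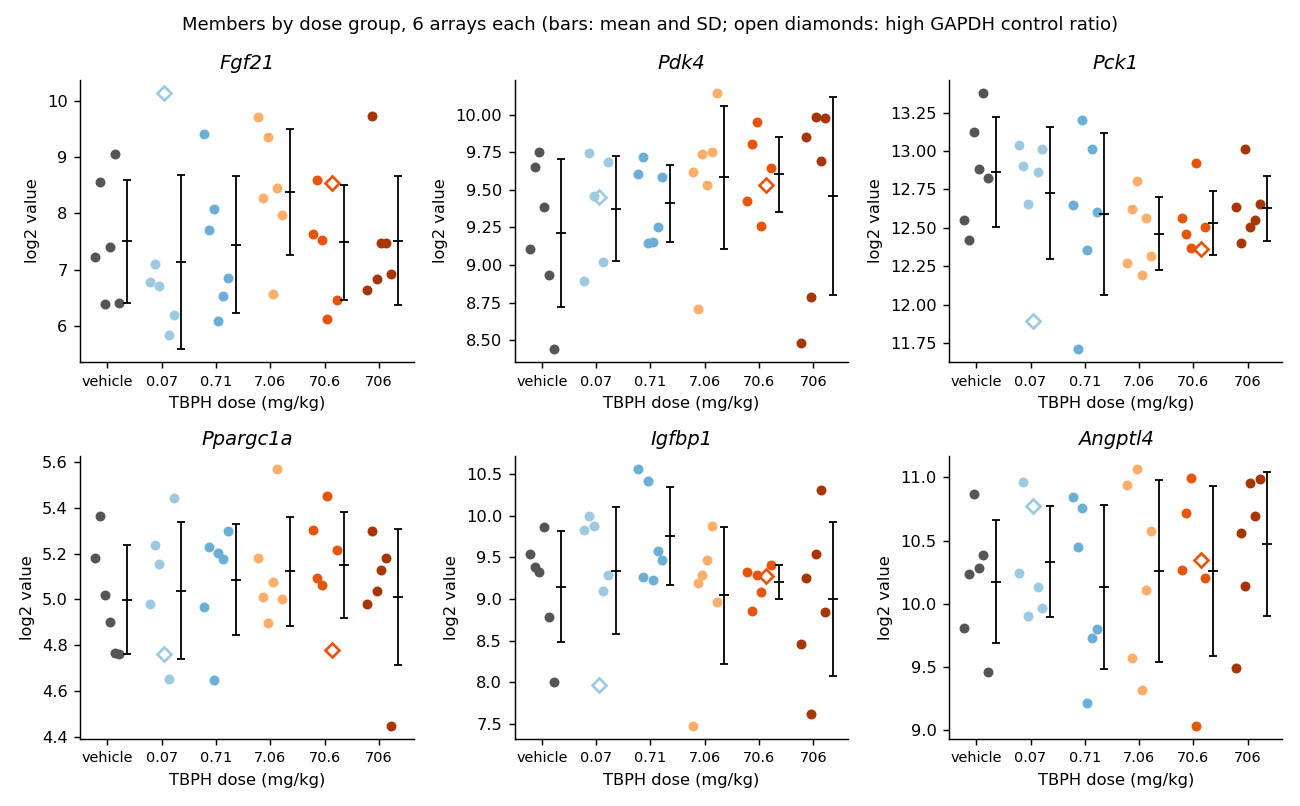
Log2 value (vertical axis) of each member in every array, by TBPH dose in mg/kg (horizontal axis, vehicle at the left), with the mean and SD of each group of 6 as bars and the 2 arrays of high GAPDH 3′ to 5′ difference as open diamonds. Fgf21 spans 5.84 to 10.14 and has low and high arrays in every group, and no member separates a dose from vehicle.

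Genes with several probe sets were checked against the one used. A second Pdk4 probe set followed the first within groups (r = 0.69 over 36 arrays), and the 2 further Ppargc1a probe sets gave r of 0.70 and 0.73 with the one used. They were less alike in their relation to Fgf21. The second Pdk4 probe set had r = -0.11 with Fgf21, where the one used had 0.26. With Angptl4 the values were 0.38 for the second and 0.64 for the one used, and with Pck1 they were 0.031 and -0.31. The further Ppargc1a probe sets had r of 0.018 and 0.0051 with Fgf21 and of -0.032 and -0.067 with Angptl4, where the one used had -0.14 and -0.29.

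No member differed between a dose and vehicle beyond the spread between arrays. Among 30 tests of a member at a dose with limma, 0 passed an adjusted p of 0.05 and adjusted p-values ran from 0.921 to 1.00. In the same fits 0.00% of 31042 probe sets passed at each dose, for the slope over dose rank and for any difference among groups, with 953 to 1626 probe sets at an unadjusted p under 0.05 per dose, 1292 for the slope and 788 for any difference. Fgf21 averaged 8.39 ± 1.12 at 7.06 mg/kg and 7.51 ± 1.09 in vehicle (SD, n = 6 each), and the difference of 0.88 log2 (95% interval -0.42 to 2.18) was the largest among the 30. Leaving out 1 array gave 0.61 to 1.25. At 706 mg/kg Fgf21 averaged 7.51 ± 1.14, and its difference from vehicle was 0.0084 (-1.29 to 1.30). The interval therefore spans changes of more than 1 log2 unit either way. At 0.07 mg/kg the Fgf21 difference was -0.38 (-1.67 to 0.92), and leaving out replicate 4 at that dose gave -0.98.

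Pck1, Pdk4 and Ppargc1a kept 1 sign each at every dose. Pck1 averaged 12.46 ± 0.24 at 7.06 mg/kg and 12.86 ± 0.36 in vehicle (SD, n = 6 each), and the difference of -0.40 (-0.78 to -0.019) had the smallest unadjusted p-value among the 30 and an adjusted p of 1.00 by limma. Pck1 differences at the other doses were -0.14 at 0.07, -0.28 at 0.71, -0.33 at 70.6 and -0.24 at 706 mg/kg. Those of Pdk4 were 0.16 at 0.07, 0.20 at 0.71, 0.37 at 7.06, 0.39 at 70.6 and 0.25 at 706 mg/kg, each with an interval that includes 0. All doses share the same 6 vehicle arrays, so equal signs across doses are not independent of each other. Igfbp1 ranged from -0.14 at 706 mg/kg to 0.60 (-0.16 to 1.36) at 0.71 mg/kg, Angptl4 from -0.041 to 0.30 and Ppargc1a from 0.013 to 0.15. Slopes over dose rank lay between -0.055 and 0.060 log2 per step for the 6 members, with an adjusted p of 0.998 each.

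**Figure D2:**
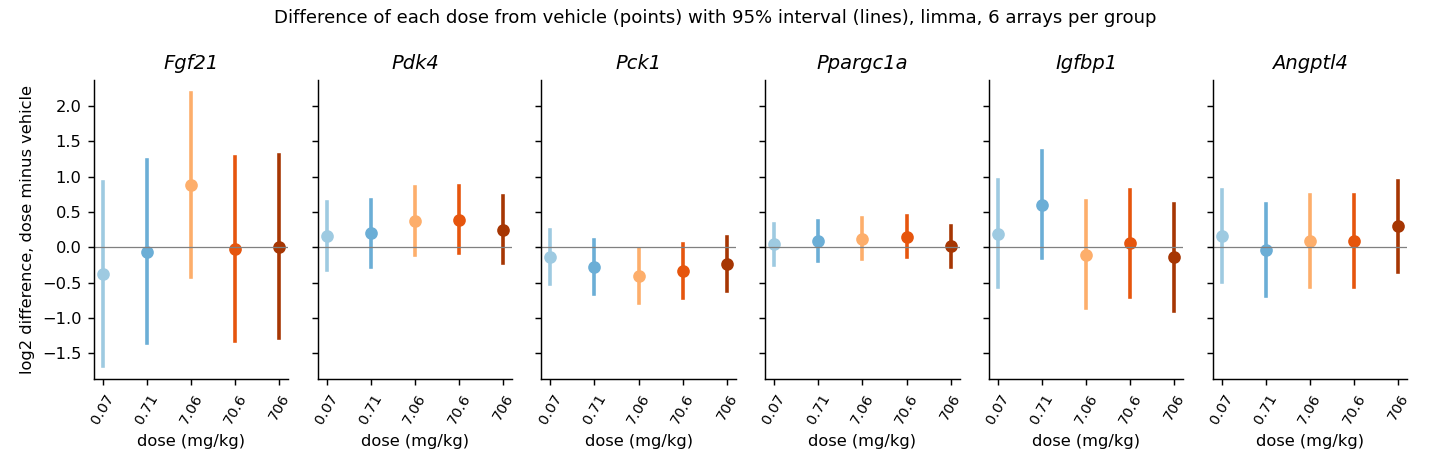
Log2 difference from vehicle (vertical axis, dose minus vehicle) of each member at each TBPH dose in mg/kg (horizontal axis), with limma's 95% intervals as lines. Fgf21 has the widest intervals, and Pck1 at 7.06 mg/kg (-0.78 to -0.019) is the single interval of 30 that leaves out 0.

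The members did not vary as 1 block within dose groups. To ask whether they were high in the same livers, each value was taken as a deviation from its group mean, and Pearson's r of the deviations was computed for the 15 pairs over 36 arrays. These correlations are descriptions, without p-values, because the members were chosen with results of these arrays known, and the points of a pair share arrays and their normalization. The median r was 0.15 (Spearman's rho 0.15), 8 of 15 pairs were positive and 2 reached 0.5. By array, between 0 and 5 of the 6 members lay above their group mean, and no array had all 6 above it.

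The pairs above 0.5 both involved Angptl4. Angptl4 and Pdk4 had r = 0.64 (rho = 0.60), positive in each of the 6 groups at 0.31 to 0.95, and lay on the same side of their group means in 27 of 36 arrays. Angptl4 and Fgf21 had r = 0.60 (rho = 0.63), positive in each group at 0.19 to 0.94, and shared a side in 28 of 36 arrays. Without the 2 arrays of high GAPDH difference these values were 0.64 and 0.62. The second Pdk4 probe set had a lower r of 0.38 with Angptl4 over all arrays. As a background, 2.13% of 31041 other probe sets reached r = 0.5 with Fgf21, 1.25% with Pdk4 and 3.03% with Angptl4. Angptl4 ranked 181st among all probe sets by r with Fgf21 and 99th by r with Pdk4. Fgf21 and Pdk4, which both went with Angptl4, had a weaker r of 0.26 with each other, at 0.06 to 0.49 by group. On the second Pdk4 probe set the r with Fgf21 was -0.11.

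Pck1 did not accompany the hormone. Pck1 and Pdk4, both textbook fasting genes, had r = -0.31, negative in each of the 6 groups, but the second Pdk4 probe set had r = 0.031 with Pck1. Pck1 and Fgf21 had r = -0.29, which was -0.040 without the 2 arrays of high GAPDH difference and -0.061 without replicate 4 at 0.07 mg/kg alone. That liver had the highest Fgf21 of all arrays (10.14) together with the lowest Pck1 (11.90) and lowest Igfbp1 (7.97) of its group. Fgf21 and Igfbp1 had r = -0.062 over all arrays and 0.17 without the same replicate. Igfbp1 was closest to Pdk4 (r = 0.35). Ppargc1a, on the probe set used, was closest to Pdk4 (0.21) and farthest from Angptl4 (-0.29). Its further probe sets differed, with r of 0.45 and 0.42 with Pdk4, 0.48 and 0.37 with Igfbp1 and -0.16 and -0.38 with Pck1, their lowest. The r of Ppargc1a with Pck1 was -0.31 without the 2 arrays of high GAPDH difference and -0.12 over all arrays. Correlations of the members with the GAPDH difference itself were 0.31 for Fgf21, -0.41 for Ppargc1a, -0.28 for Pck1 and -0.10 to 0.10 for the rest.

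**Figure D3:**
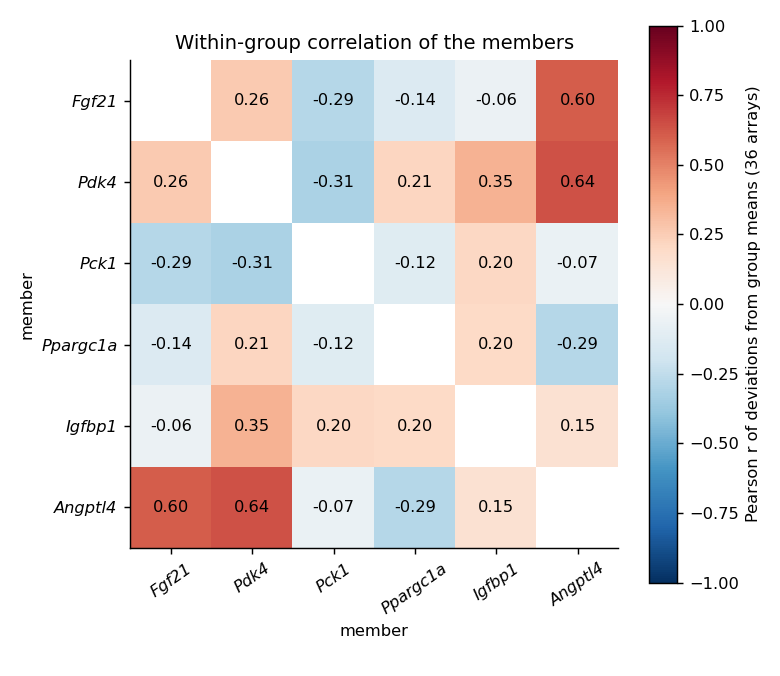
Pearson r of deviations from group means over 36 arrays for each pair of members (both axes list the members, colour gives r). Angptl4 with Pdk4 (0.64, but 0.38 on the second Pdk4 probe set) and with Fgf21 (0.60) stand above the rest. Pck1 is negative with Pdk4 (-0.31, but 0.031 on the second Pdk4 probe set) and Fgf21 (-0.29, but -0.040 without the 2 arrays of high GAPDH difference).

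The genes that varied most like Fgf21 were led by Atf4 and included several of its known targets. Among 9580 other genes whose probe set had a mean at or above the table's median, the highest r with Fgf21 belonged to Atf4 (0.86), which ran from 10.15 to 11.40. Next came Ddit4 (0.86), a stress-induced inhibitor of mTORC1 that ran from 5.18 to 9.10, and Ifrd1 (0.83), Kctd20 (0.82) and Mepce (0.82), a capping enzyme of 7SK RNA. Chac1 (0.82), which breaks down glutathione and ran from 5.82 to 9.46, was followed by Slc38a2 (0.79), an amino acid transporter, and Clp1 (0.78), an RNA kinase. Atf3 (0.77) and Ddit3 (0.77), the stress transcription factors ATF3 and CHOP, closed the 10. All 10 were positive with Fgf21 in each of the 6 groups. They were picked by r over the same arrays, so shared signs and shared highest arrays are not separate evidence.

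Atf4 and Fgf21 had their highest array in common in 5 of the 6 groups and their lowest in 3. Without the 2 arrays of high GAPDH difference r was 0.81 for Atf4, 0.81 for Ddit4, 0.74 for Chac1 and 0.66 for Ddit3. The Spearman rho was 0.80 for Atf4 and 0.67 for Chac1. The lowest r with Fgf21 belonged to Afmid (-0.77), an enzyme of tryptophan breakdown, Btg1 (-0.71), Arg1 (-0.66), the arginase of the urea cycle, Skp1 (-0.65) and Dcun1d4 (-0.65). Arg1 moved within a narrow band, 12.67 to 13.10. None of these 5 was positive with Fgf21 in any group, which their selection by r over the same arrays favours. None of the 10 highest or 5 lowest was called at any dose (limma, smallest adjusted p of all neighbours 0.921).

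**Figure D4:**
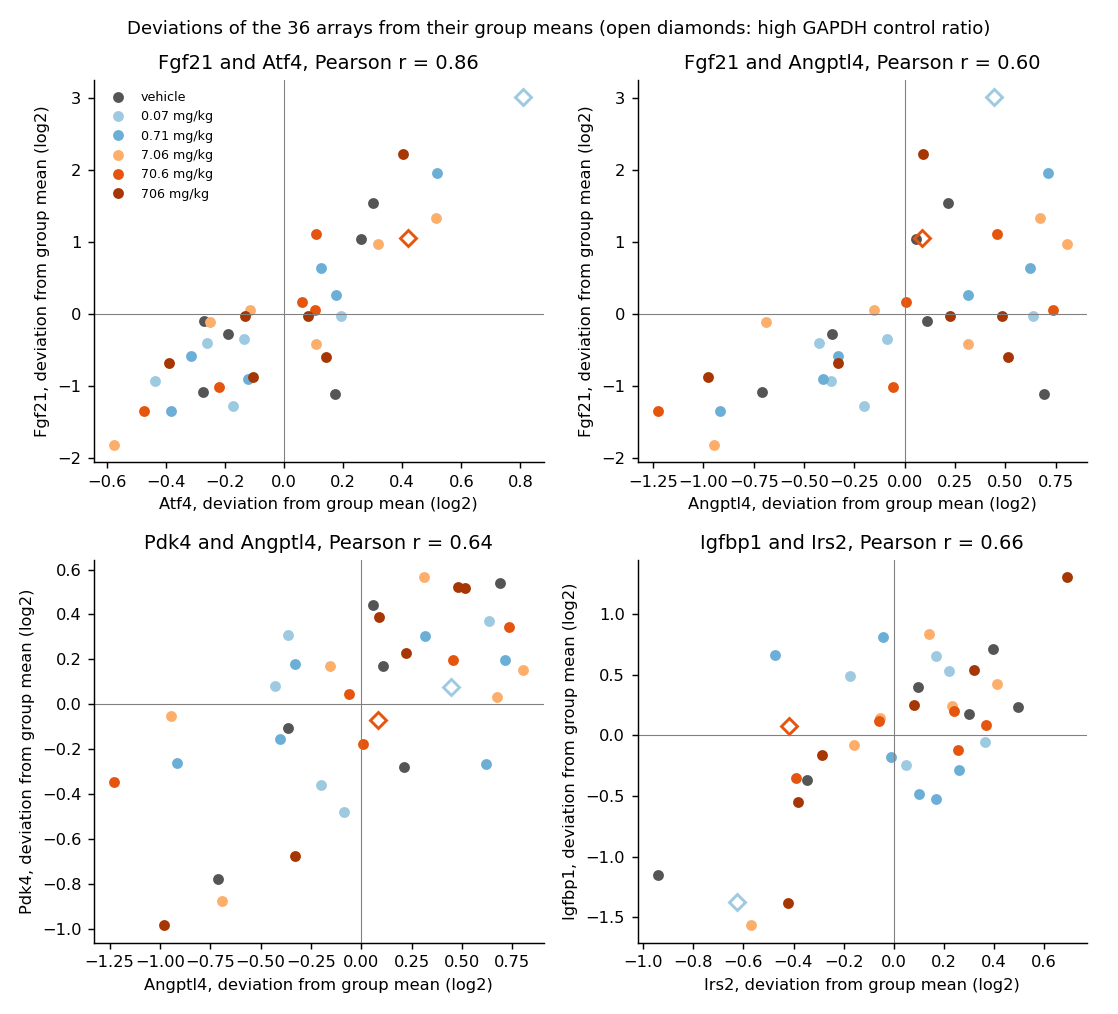
Deviations of the 36 arrays from their group means, in log2, for Fgf21 against Atf4 (r = 0.86), Fgf21 against Angptl4 (0.60), Pdk4 against Angptl4 (0.64) and Igfbp1 against Irs2 (0.66), coloured by dose group, with the 2 arrays of high GAPDH difference as open diamonds. The Fgf21 and Atf4 points lie along a rising diagonal.

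The other members had other neighbours. Angptl4 went with Socs2 (0.86), Slc25a30 (0.85) and Rbpj (0.85), the first a growth hormone induced inhibitor of cytokine signalling. Pdk4 went with Rgs3 (0.84), the liver transcription factor Foxa2 (0.83) and Cish (0.82), another cytokine signalling inhibitor induced through STAT5. Cish differed by 1.58 (0.55 to 2.60) between 70.6 mg/kg and vehicle, but its adjusted p was 0.921 by limma. Ppargc1a went with Mtss1 (0.74), Myc (0.73) and the nuclear receptor Nr5a2 (0.72). Igfbp1 went with Irs2 (0.66), an insulin receptor substrate that insulin represses as it does Igfbp1, and with Pnrc1 (0.63) and Lyn (0.59). Pck1 went with Exoc8 (0.67), Tlcd3b (0.62) and Prox1 (0.56), and these were 0.55, 0.51 and 0.51 without the 2 arrays of high GAPDH difference.

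The sets of genes with r of at least 0.5 overlapped between some members. There were 448 such genes for Fgf21, 599 for Angptl4, 234 for Pdk4, 97 for Ppargc1a, 36 for Igfbp1 and 22 for Pck1. Fgf21 and Angptl4 shared 255, which is 56.9% of the Fgf21 genes and 42.6% of the Angptl4 genes. Pdk4 and Angptl4 shared 136, or 58.1% of the Pdk4 genes and 22.7% of the Angptl4 genes. Fgf21 and Pdk4 shared 58, or 12.9% and 24.8% of their sets. Fgf21 shared none with Pck1, Ppargc1a or Igfbp1. The Fgf21 set holds 448 of the 9581 genes compared, so sets of 22, 36 and 97 genes would share few with it by chance. Sharing none is therefore not read as separation for any of them. Sharing above or below chance was not tested for any pair. All sets come from r over the same arrays, so members that vary together share such genes. These overlaps are not evidence separate from the r of the pairs. The numbers without the 2 arrays of high GAPDH difference were 268 genes for Fgf21, 649 for Angptl4, 299 for Pdk4, 79 for Ppargc1a, 112 for Igfbp1 and 26 for Pck1. Fgf21 then shared 163 with Angptl4 (60.8% and 25.1% of their sets), 50 with Pdk4, 7 with Igfbp1 and 1 with Ppargc1a.

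Gene lists for the known inputs to these genes were then set against Fgf21. The lists were chosen with earlier results of these data known. They hold genes named above as highest by r with Fgf21, Atf4 among them, so their values are not separate from that ranking. Among 27 measured genes of ATF4 and the stress response, the median r with Fgf21 was 0.45, 23 were positive and 10 reached 0.5, against a median of -0.014 over all probe sets. Without the 2 arrays of high GAPDH difference the list's median was 0.42 and 7 reached 0.5, when 1.44% of all probe sets did. Trib3 (0.70), a pseudokinase induced by ATF4, ran from 5.54 to 9.19, and Asns (0.51), asparagine synthetase, from 5.53 to 8.24, both chosen after their values were seen, and these were 0.67 and 0.49 without the 2 arrays. The endoplasmic reticulum chaperone Hspa5 had r = -0.029 and Cth, cystathionine gamma-lyase, was lowest at -0.31. With Angptl4 the median r of the same list was 0.16, and with Pck1 it was -0.17.

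PPAR alpha and ketogenesis genes varied less with Fgf21. Of 32 measured, 27 were positive, the median r was 0.14 and 1 reached 0.5, Cpt2 (0.54), a carnitine palmitoyltransferase. Cpt1a, its partner at the outer mitochondrial membrane, had 0.49 and Acadm, a fatty acyl-CoA dehydrogenase, was lowest at -0.38. Without the 2 arrays of high GAPDH difference the median was 0.22 and 4 reached 0.5, when 1.44% of all probe sets did. With Angptl4, itself a PPAR alpha target, the median was 0.089 and 0 of 32 reached 0.5. The median SD within groups was 0.141 for this list, 0.283 for the ATF4 list and 0.147 for all probe sets. The part of this spread in the lower r was not tested.

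Lists for glucagon, insulin and glucocorticoid signals had medians between -0.029 and 0.075 with Fgf21, and without the 2 arrays of high GAPDH difference between -0.075 and 0.082. The 27 genes listed for gluconeogenesis and glucagon, amino acid transport and urea cycle genes among them, had a median r of -0.029 with Fgf21. Slc38a2 (0.79) and Cebpb (0.60) were highest with Fgf21 and Arg1 (-0.66) lowest. With Pck1 the median was 0.13. The list's median with Fgf21 was 0.082 without the 2 arrays. For 22 genes that FOXO1 raises or insulin represses the median was 0.056 with Fgf21, led by Txnip (0.54) and Klf9 (0.50) and ending with Sod2 (-0.63), and 0.15 with Igfbp1. For 23 genes that insulin induces it was 0.075, with Angptl8 (0.66) and Insig1 (0.44) highest and the liver X receptor Nr1h3 (-0.55) lowest. Its median was -0.075 without the 2 arrays, when Angptl8 had 0.49, Insig1 had 0.30 and 0 of the 23 reached 0.5, where 1 had done so over all arrays. For 20 glucocorticoid genes it was -0.013, with Ddit4 (0.86) and Errfi1 (0.70) highest and Tdo2 (-0.50) lowest, and the number at 0.5 or above was 4 over all arrays and 2 without the 2 arrays, when Tdo2 had -0.31. PGC1 alpha partners had a median of 0.24 with Fgf21 but -0.18 with Ppargc1a itself, and ran from Rxra (-0.58) to Kat2a (0.46) and Alas1 (0.54) with Fgf21. Kat2a had 0.26 and Alas1 0.48 without the 2 arrays, and 0 of the list reached 0.5.

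FGF receptors with relatives of Fgf21, the members' own families and clock genes were read the same way. Fgfr4, the main FGF receptor of hepatocytes, had r = 0.54 with Fgf21, Fgfr3 had 0.23 and Fgfr1 was lowest of 14 at -0.24. Fgfr4 had 0.33, Fgfr3 0.27 and Fgfr1 -0.35 without the 2 arrays of high GAPDH difference, and 0 of the 14 reached 0.5. In the families, Pprc1 (0.68), a relative of Ppargc1a, and Angptl8 (0.66), a relative of Angptl4, were highest of 21 and Igfbp5 (-0.22) was lowest, and 4 reached 0.5 over all arrays but 2 without the 2 arrays, when Angptl8 had 0.49. Pck2, the mitochondrial form of Pck1, had r = 0.40 with Fgf21 (0.24 without the 2 arrays) and -0.50 with Pck1, named after its values were seen. Among 19 clock genes Bhlhe40 (0.67) and Nr1d2 (0.57) were highest with Fgf21 and Hlf (-0.50) lowest. Of these Bhlhe40 (0.53) alone stayed at 0.5 or above without the 2 arrays, when Nr1d2 had 0.47. Nfil3 had r = 0.79 with Pdk4, also named after its values were seen. No gene of these lists was called at any dose, with 0 higher and 0 lower. Leaving out the cell type markers, the median differences of the lists from vehicle lay between -0.035 and 0.12 log2. For any difference among the groups, the lowest unadjusted p-values belonged to Acot2 among PPAR alpha genes and Cry1 among clock genes. In the gluconeogenesis and glucagon list it belonged to Ppp1r3b, and among ATF4 genes to Nupr1. Each of these genes had an adjusted p of 1.00 by limma.

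**Figure D5:**
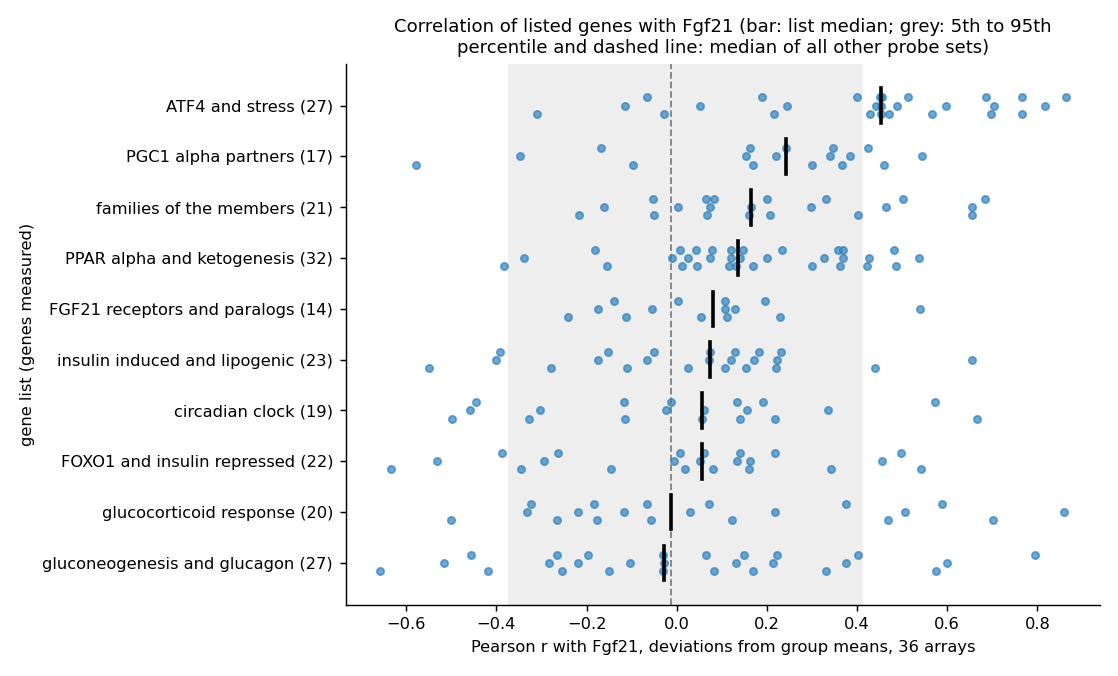
Pearson r with Fgf21 (horizontal axis, deviations from group means over 36 arrays) of each measured gene in 10 lists (vertical axis, with the number measured), with the list median as a bar and, for all other probe sets, the median as a dashed line and the 5th to 95th percentile, -0.37 to 0.41, in grey. ATF4 and stress genes have a median of 0.45 and PPAR alpha genes one of 0.14.

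The CARE word of the Fgf21 promoter was then looked up in the genes that varied with Fgf21. Of the 392 genes with r of at least 0.5 and a promoter in the table, 7 (1.79%) held CARE in the 300 bases, and 51 of 8044 genes compared (0.634%) did. The shares were 0.971% for the genes of Angptl4, 0.498% for those of Pdk4 and 2.47% (2 of 81) for those of Ppargc1a, and no gene of Igfbp1 or Pck1 held it. CARE shares without the 2 arrays of high GAPDH difference were 1.28% (3 of 234) for Fgf21, 1.25% for Angptl4 and 3.03% (2 of 66) for Ppargc1a. They were 0.769% for Pdk4, 1.06% (1 of 94) for Igfbp1 and 0% for Pck1. Over all arrays, CRE stood in 3.06% of the Fgf21 genes and 3.19% of the genes compared. Its 5-letter part stood in 35.2% and 32.4%, the FOXO word in 2.81% and 2.45% and the PPAR core in 1.28% and 1.83%. CRE shares were 5.83% for the genes of Angptl4, 4.98% for Pdk4, 18.75% (3 of 16) for Pck1, 2.47% for Ppargc1a and 3.85% for Igfbp1. Fgf21 and those of its nearest genes and of the ATF4 list with r of at least 0.5 and an entry came to 15, of which 4 held CARE. Fgf21, where the word was first found, is counted in both numbers. The other genes were picked by r with Fgf21 or by the list, so this count is not set against the share of all genes. The 4 with CARE are shown in windows of 30 bases, CARE in capitals, read on the strand of the gene. Their r with Fgf21 was 0.82 for Chac1, 0.69 for Herpud1 and 0.57 for Nupr1, and without the 2 arrays it was 0.74, 0.57 and 0.43. The windows lie at chr1:105221501-105221530 (Fgf21), chr3:126795953-126795982 (Chac1), chr19:10614873-10614902 (Herpud1) and chr1:190645938-190645967 (Nupr1) in GRCr8. Each holds TTGCATCA on the strand of the gene. Atf4, Trib3, Asns and Ddit3 did not hold this exact word in their 300 bases. Variants of CARE were not searched.
Fgf21: agacccccccaTTGCATCAttcgtccaggc
Chac1: cttctccgccgTTGCATCActcctgctagg
Herpud1: accacggcgggTTGCATCAgcccgcaccct
Nupr1: aaaaggccagaTTGCATCAgacagggcttg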

How the data were processed

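Liver RNA was measured on 36 Affymetrix 3′ arrays, 6 per group. The deposited table holds log2 values, which the authors made with RMA and the affy package per the submitters' processing notes. These give no versions and no build. RMA equalises the distributions of the arrays, so a change shared by most probe sets would not be seen. The table lists 31099 probe sets, of which 57 array controls were left out and 31042 tested. Precision is limited by the number of arrays, which have no read depth.

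All 36 arrays were fitted with limma 3.58.1 in R 4.3.3, with 1 mean for each group, which leaves 30 residual degrees of freedom. Tests were two-sided, and Benjamini-Hochberg adjusted p-values over all probe sets were called under 0.05. R/maanova, which the design text names, was not at hand. The fit was tested on simulated data. Correlations used deviations from group means in Python 3.11.15. Named genes were the 10 highest and 5 lowest by r with Fgf21, the 3 highest with each other member, all among single-symbol probe sets with a mean at or above the table median, and in each list the 2 highest and 1 lowest by r with Fgf21 and the smallest p. The members and lists were chosen with earlier results of these data known. Alternatives covered a replicate block, variance moderation, array weights, a dim probe set filter, median centring, the arrays in the fit, other thresholds, another dose scale and the fit without each array in turn. Leaving out the 2 arrays of high GAPDH difference in anything but the member pairs was chosen after seeing the data.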

Additional observations from a re-analysis of the deposited data

Results flagged for a closer look

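The gap from the outermost array to its neighbour was set against Dixon's critical share of the range for each member in each group of 6 arrays, 36 groups in all. The members were chosen for their wide range over these arrays, so the gaps are descriptions and not tests, and the rate of about 1 in 20 that chance gives for unselected values is no measure for them. In 5 groups the outermost array was separated from its neighbour by more than Dixon's critical share of the group's range for 6 arrays. Fgf21 at 706 mg/kg had a gap of 0.728 of the range, from replicate 2 (9.74) to the next array (7.48). Fgf21 at 0.07 mg/kg had 0.706, from replicate 4 (10.14) to the next (7.11). Pck1 at 0.07 mg/kg had 0.663, with the same replicate 4 lowest (11.90, next 12.65), and this array also had the second highest GAPDH 3′ to 5′ difference (0.33). Pck1 at 70.6 mg/kg had 0.639, from replicate 4 (12.92) to the next (12.56). Ppargc1a at 706 mg/kg had 0.628, with replicate 6 lowest (4.45, next 4.98).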

How the results depend on the processing

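No probe set was called in any of the 7 comparisons under the 55 alternative values and the 132 that left out 1 array. Of 205 alternative member differences from vehicle, 1 changed sign: Pck1 at 0.07 mg/kg was 0.031 without the 2 arrays of high GAPDH difference. Leaving out 1 array changed the sign in 13 of 30 member differences, none of them called. Their lowest and highest values were, for Fgf21, -0.45 and 0.25 at 0.71 mg/kg, -0.24 and 0.29 at 70.6 mg/kg, -0.44 and 0.32 at 706 mg/kg; for Angptl4, -0.18 and 0.14 at 0.71 mg/kg, -0.074 and 0.28 at 7.06 mg/kg, -0.061 and 0.33 at 70.6 mg/kg; for Igfbp1, -0.038 and 0.47 at 0.07 mg/kg, -0.34 and 0.21 at 7.06 mg/kg, -0.17 and 0.20 at 70.6 mg/kg, -0.40 and 0.13 at 706 mg/kg; for Ppargc1a, -0.042 and 0.12 at 0.07 mg/kg, -0.044 and 0.13 at 706 mg/kg, and -0.22 and 0.031 for Pck1 at 0.07 mg/kg. The Fgf21 extremes came from vehicle replicates 3 and 5, from replicate 1 of the 0.71 mg/kg group and from replicate 2 of the 706 mg/kg group. Those of Angptl4 came from replicates 1 and 4 at 0.71 mg/kg and replicates 3 and 4 at 7.06 and at 70.6 mg/kg. Those of Igfbp1 came from vehicle replicates 4 and 6, replicate 4 at 0.07 mg/kg, replicate 1 at 7.06 mg/kg and replicates 3 and 5 at 706 mg/kg. Those of Ppargc1a came from replicates 5 and 6 of the 0.07 mg/kg group and replicates 2 and 6 of the 706 mg/kg group, and those of Pck1 from vehicle replicate 2 and replicate 4 of the 0.07 mg/kg group. No slope changed sign. The median r over the 15 pairs was 0.091 to 0.16 over 7 alternatives and 0.080 to 0.20 with 1 array left out. With the replicate block it was 0.13, and 0 probe sets were called. The replicate numbers were not taken as pairs, since same-numbered arrays had a median correlation of deviations of -0.019 and 17 of 90 such pairs were over 0.1. The filter on dim probe sets dropped Ppargc1a.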
